A study of Mus musculus with 6 samples.

Results

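The 33 genes described here encode the machinery that shortens messenger RNA tails, removes the cap and degrades the message from its 5′ end. They were chosen by gene symbol, and each symbol matched 1 of the 54752 gene identifiers in the deposited tables. The study sorted pro-B cells, the stage at which B lineage precursors join the segments of the heavy chain gene, from the bone marrow of adult C57BL/6 mice and sequenced their messenger RNA, 1 library per mouse. The Skiv2l-deleted group (genotype Skiv2lfl/fl-Cd79a-Cre) had 3 mice with floxed Skiv2l alleles and a Cre recombinase named for Cd79a, a gene of the B lineage. The control group (genotype Skiv2lfl/fl) also had 3 mice, which carried the floxed alleles and for which the labels name no Cre. Effects of Cre and of the loss of Skiv2l therefore cannot be told apart. The labels do not give the sorting markers or the sex of the mice.

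Decay of most messenger RNA begins with removal of the poly(A) tail by the PAN2-PAN3 and CCR4-NOT deadenylases. The LSM1-7 ring and PATL1 then bind the shortened 3′ end, DDX6 and the EDC proteins activate the DCP2-DCP1 decapping enzyme, and the exonuclease XRN1 degrades the uncapped message from its 5′ end. SKIV2L, the helicase of the SKI complex, serves the other direction, since it feeds deadenylated messages to the cytosolic exosome for decay from the 3′ end. CCR4-NOT activity is needed in early B cell development in the mouse.

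The aligned bases of a library came to between 1.74 and 2.40 Gb. Values are FPKM, which divides fragments by the length of the transcript and the size of the library. The groups were compared with limma on log2(FPKM + 1) over the 13539 genes that reached 1 FPKM in 3 or more of 6 libraries. Skiv2l itself (chromosome 17, 34839228 to 34850210, GRCm38) had 9.53, 16.1 and 10.9 FPKM in Skiv2l-deleted libraries, against 25.4, 20.2 and 46.3 FPKM in the control libraries. The groups did not overlap, at a log2 fold change of -1.21 ± 0.32 (SE, limma adjusted p = 0.063). Of 12 pro-B markers, all were tested; 6 were called higher and 1 lower, Cd79a itself, and their summed level was 4408 to 5485 FPKM in Skiv2l-deleted libraries and 2977 to 4093 FPKM in control libraries. Of 6 plasma cell markers, 3 of the 5 tested were called lower, Igha, Jchain and Sdc1. The 6 summed to 127 to 152 FPKM in Skiv2l-deleted and 422 to 619 FPKM in control libraries. Igha averaged 0.129 FPKM in Skiv2l-deleted and 253 FPKM in control libraries, and Jchain 0.105 and 52.2 FPKM. Most of the Skiv2l-deleted sum came from Irf4 and Xbp1, which were not called. Irf4 averaged 73.2 FPKM in Skiv2l-deleted and 132 FPKM in control libraries, and Xbp1 54.4 and 42.9 FPKM. Of 5 later B cell markers, 3 of the 4 tested were called lower (sum 77.3 to 118 FPKM in Skiv2l-deleted and 139 to 185 FPKM in control libraries), while 1 of the 2 tested NK cell markers of 3, Klrb1c, was called higher (sum of the 3, 13.7 to 42.8 FPKM in Skiv2l-deleted and 5.13 to 18.3 FPKM in control libraries). The 5 T cell markers together stayed at or below 0.839 FPKM in every library. The part of these cell type differences in the results below was not tested.

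A pair of libraries stood apart from the rest of their groups. The second principal component, with 33.1% of the variance, placed Skiv2l-deleted 2 and control 3 away from the other libraries. Mpo, a granule enzyme of myeloid precursors, stood at 6.53, 641 and 4.30 FPKM in Skiv2l-deleted libraries and at 8.99, 6.79 and 343 FPKM in control libraries. Elane, a protease of the same cells, stood at 3.46, 341 and 2.02 FPKM in Skiv2l-deleted libraries and at 3.95, 3.41 and 168 FPKM in control libraries. None of the 7 myeloid and 5 erythroid markers was called between the groups. Their sums ran from 82.7 to 2244 FPKM for myeloid and from 2.62 to 136 FPKM for erythroid markers in Skiv2l-deleted libraries, against 130 to 1264 FPKM and 3.21 to 5.63 FPKM in controls. Results are therefore also given without these 2 libraries where that changes a call. They are also given for Cnot2 and Cnot6, whose fold changes were larger without the 2 libraries but which were still not called.

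No gene of the 33 passed the threshold in either direction (limma adjusted p below 0.05), where 8.84% of all tested genes did (4.97% higher and 3.87% lower). All 33 passed the filter on low values, at 3.74 FPKM or more in every library. At an unadjusted limma p under 0.05 there were 3, Lsm6 and Lsm5 at lower and Parn at higher level in Skiv2l-deleted cells, which is 9.09% of the 33, against 25.6% of all tested genes. The log2 fold changes ran from -0.42 to 0.35 with 15 above and 18 below 0. Their median was -0.06, where that of all tested genes was 0.06, and the median of their absolute values was 0.12, against 0.22 over all tested genes. In bulk samples such as these, fewer cells of a type and less RNA per cell cannot be told apart.

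The intervals show how large a difference these data leave room for. The standard errors of the 33 ran from 0.09 to 0.35, with a median of 0.15 (0.16 over all tested genes). For 24 of the 33 (72.7%) the 95% interval lay inside a 1.5-fold change in either direction, as it did for 41.7% of all tested genes. For all 33 it lay inside a 2-fold change, as it did for 80.2% of tested genes. The 33 were also more abundant, at a median level of 29.1 FPKM against 12.6 FPKM over all tested genes. The part of level in these shares was not tested. The intervals that passed 1.5-fold belonged to Lsm6 on the lower side, to Tob1 on the lower side, to Parn, Dis3l2, Dcp1a, Ddx6, Xrn1 and Lsm7 on the higher side, and to Cnot6l on both. The groups overlapped in 28 of the 33. Parn and Dis3l2 were higher in every Skiv2l-deleted library than in any control (19.9% of all tested genes were), and Lsm5, Lsm6 and Edc4 were lower (12.3% of all tested genes were).

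**Figure D1:**
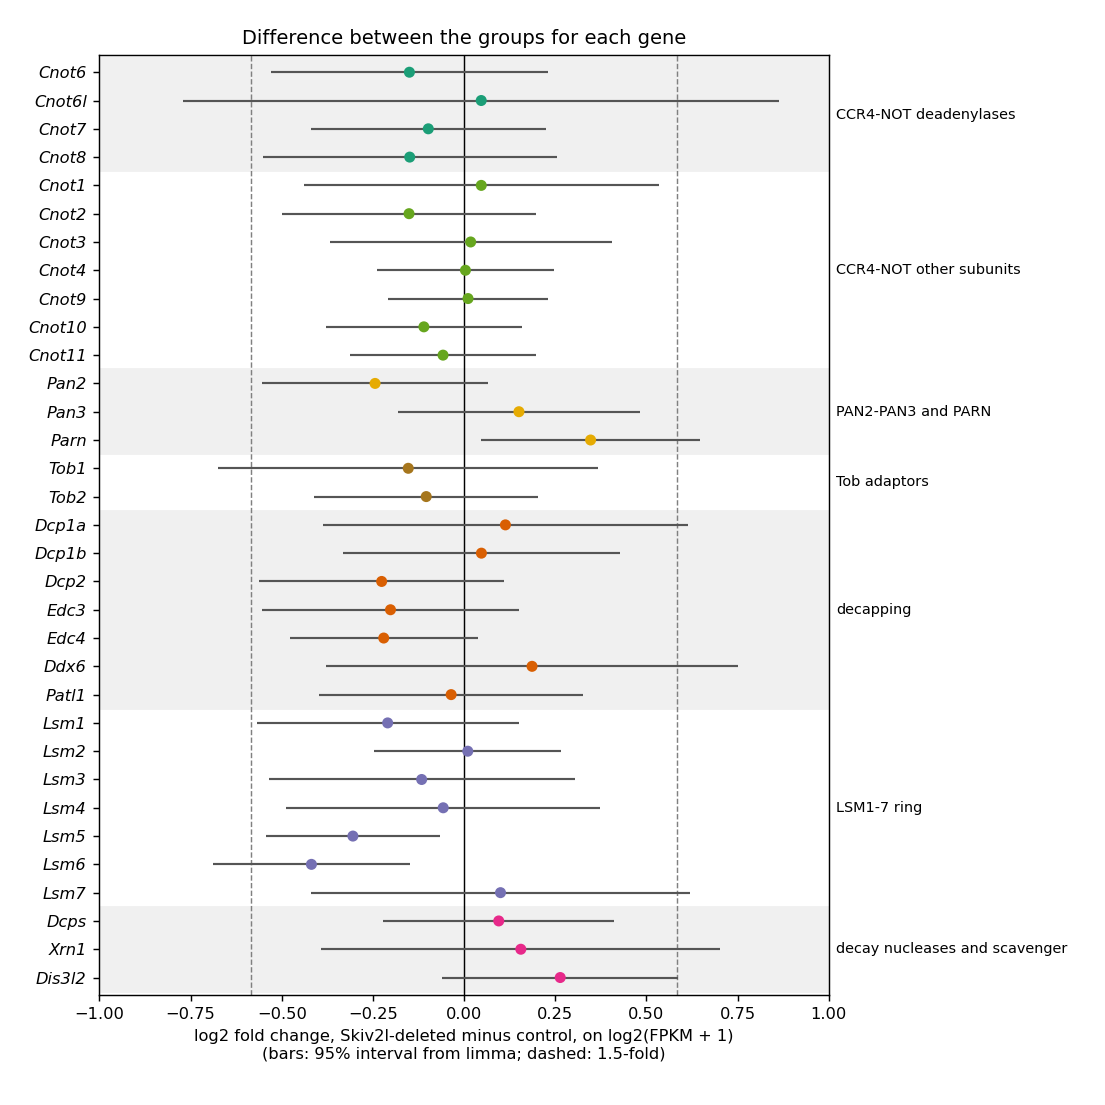
Log2 fold change of each of the 33 genes on the log2(FPKM + 1) scale (horizontal axis, Skiv2l-deleted minus control) with its 95% interval, genes grouped by role from top to bottom. Dashed lines mark a 1.5-fold change, and only the intervals of Lsm6, Lsm5 and Parn lie wholly on one side of 0.

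**Figure D2:**
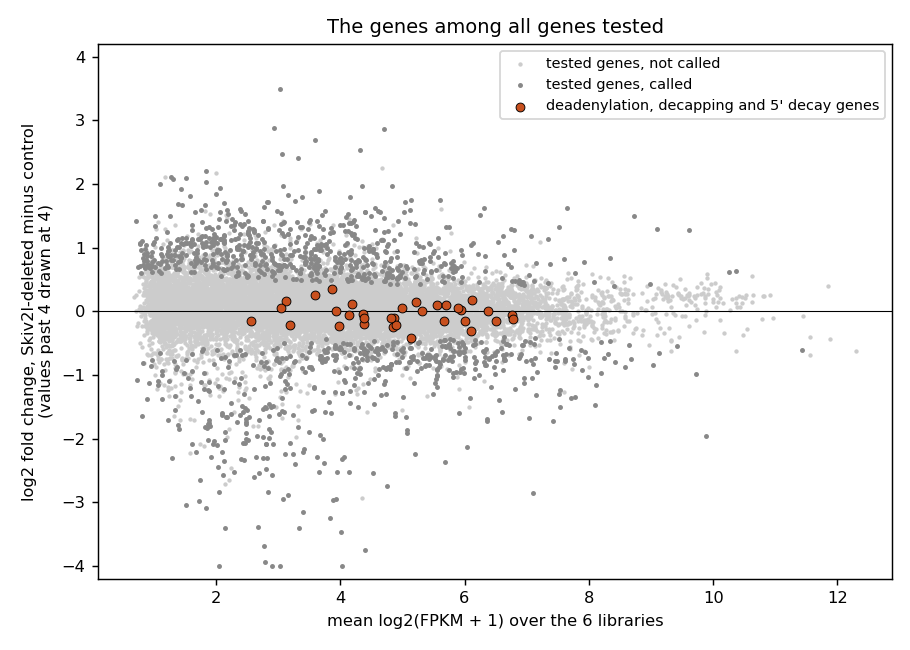
Log2 fold change (vertical axis, Skiv2l-deleted minus control) against mean log2(FPKM + 1) over 6 libraries (horizontal axis) for the 13539 tested genes, with the 33 genes as larger points and values past 4 drawn at 4. The 33 sit between -0.42 and 0.35, and none was called.

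Among the catalytic subunits of CCR4-NOT, Cnot8 was the most abundant, and over all 6 libraries none differed between the groups beyond its spread. Cnot8, a deadenylase of the CAF1 type, stood at 54.7, 66.8 and 60.0 FPKM in Skiv2l-deleted libraries and at 58.9, 59.4 and 86.0 FPKM in control libraries. Its paralog Cnot7 stood at 27.2, 26.3 and 28.4 FPKM in Skiv2l-deleted libraries and at 34.3, 29.3 and 24.9 FPKM in control libraries. For both genes the groups overlapped, with log2 fold changes of -0.15 ± 0.17 and -0.10 ± 0.14 (SE). Cnot6, of the CCR4 type, stood at 49.3, 43.3 and 49.6 FPKM in Skiv2l-deleted libraries and at 57.8, 60.5 and 41.5 FPKM in control libraries. The log2 fold change of Cnot6 was -0.15 ± 0.16 (SE), and -0.25 without Skiv2l-deleted 2 and control 3 (limma adjusted p = 0.112). Its paralog Cnot6l had the largest standard error of the 33, with values of 28.5, 24.8 and 44.1 FPKM in Skiv2l-deleted libraries and 44.3, 34.8 and 18.2 FPKM in control libraries. The lowest library of each group was one of the pair that stood apart, and the interval of Cnot6l, -0.77 to 0.86, was the widest of the set. The 4 enzymes summed to 168 ± 12.5 FPKM in Skiv2l-deleted and 183 ± 12.4 FPKM in control libraries (SD, n = 3 each, exact permutation p = 0.2, where 0.1 is the smallest that 3 against 3 allows). The log2 ratio of the means, -0.13, was -0.08 without control 1. The difference was larger without control 3, the lowest control, or without Skiv2l-deleted 3, the highest of its group.

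Because the CAF1-type and CCR4-type enzymes come as paralog pairs, the share of each within its pair was compared, a measure that scaling between libraries does not affect. Cnot7 made up 31.2 ± 2.61% of Cnot7 plus Cnot8 in Skiv2l-deleted and 30.8 ± 7.47% in control libraries (SD, n = 3 each, exact permutation p = 0.9). Cnot6l made up 40.05 ± 6.10% of Cnot6l plus Cnot6 in Skiv2l-deleted and 36.8 ± 6.49% in control libraries (exact permutation p = 0.6). Cnot8 and Cnot6 were thus the larger member of their pair in all 6 libraries, and neither balance moved beyond its spread. The groups also overlapped for the decapping and adaptor pairs. Dcp1a made up 70.6 ± 4.53% of Dcp1a plus Dcp1b in Skiv2l-deleted and 69.5 ± 6.27% in control libraries (exact permutation p = 0.8), and Tob1 made up 19.5 ± 2.70% of Tob1 plus Tob2 in Skiv2l-deleted and 20.4 ± 3.53% in control libraries (exact permutation p = 0.8). Each of these 4 differences changed sign when 1 library was left out.

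**Figure D3:**
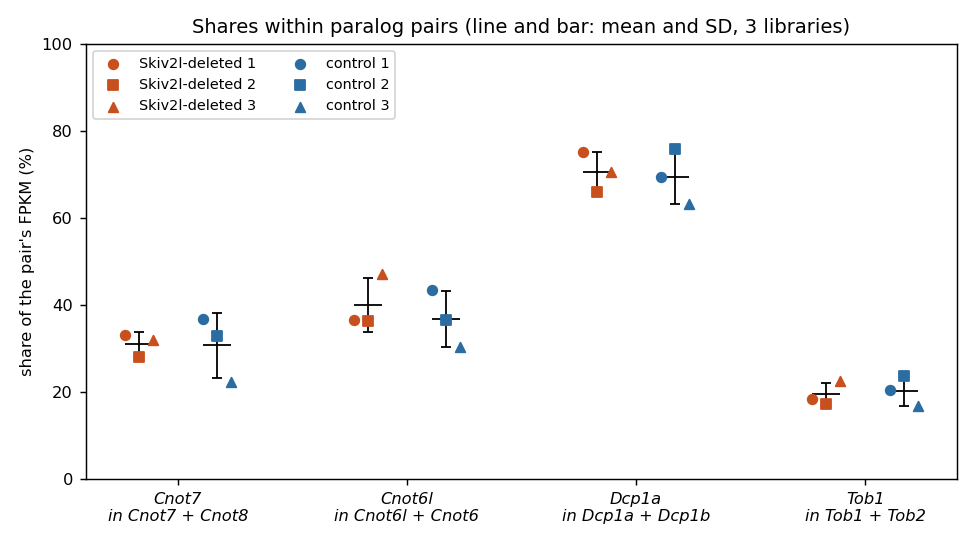
Share of the FPKM of each paralog pair held by the first-named gene (vertical axis, percent), with 1 point per library and the mean and SD of 3 libraries, Skiv2l-deleted left of control in each pair. The groups overlap in all 4 pairs, for example Cnot7 at 31.2% in Skiv2l-deleted and 30.8% in control libraries on average.

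The other 7 CCR4-NOT subunits were close between the groups, and for each of them the interval lay inside a 1.5-fold change. Cnot1, the scaffold on which the complex assembles, stood at 72.1, 49.5 and 59.9 FPKM in Skiv2l-deleted libraries and at 55.2, 74.7 and 46.9 FPKM in control libraries. Cnot2, which with Cnot3 forms the module at the scaffold's end, was the most abundant subunit and had the largest fold change of the 7, at 90.1, 78.5 and 88.0 FPKM in Skiv2l-deleted libraries and 107, 104 and 77.4 FPKM in control libraries (log2 fold change -0.15 ± 0.15 SE). Without Skiv2l-deleted 2 and control 3 the log2 fold change of Cnot2 was -0.24 (limma adjusted p = 0.118). Cnot3 averaged 61.5 ± 9.42 FPKM in Skiv2l-deleted and 60.8 ± 10.3 FPKM in control libraries (SD, n = 3 each). The steadiest were Cnot4, a ubiquitin ligase subunit, which lay between 13.6 and 14.6 FPKM over all 6 libraries, and Cnot9, which helps to recruit target-binding proteins and lay between 37.2 and 39.7 FPKM. On the log2 scale they differed by 0.00 ± 0.10 (Cnot4) and 0.01 ± 0.09 (Cnot9, SE). Cnot10 and Cnot11, which form a further module, had log2 fold changes of -0.11 and -0.06. Levels differed between subunits far more than between groups, with means over 6 libraries of 14.3 FPKM for the least and 90.7 FPKM for the most abundant of the 7.

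PAN2-PAN3 starts tail shortening, with PAN2 as the nuclease and PAN3 as the subunit that brings it to the message. Pan2 stood at 25.7, 25.6 and 25.1 FPKM in Skiv2l-deleted libraries and at 33.2, 25.4 and 33.1 FPKM in control libraries, with the lowest control inside the range of the Skiv2l-deleted libraries (log2 fold change -0.24 ± 0.13 SE). Pan3 stood at 41.5, 39.1 and 33.9 FPKM in Skiv2l-deleted libraries and at 31.6, 31.3 and 40.4 FPKM in control libraries (log2 fold change 0.15 ± 0.14 SE). Parn, a cap-stimulated deadenylase that also matures small RNAs such as the telomerase RNA, had the highest log2 fold change of the 33. The gene lies on chromosome 16 (13537960 to 13668170 in GRCm38) and had 15.8, 14.4 and 16.6 FPKM in Skiv2l-deleted libraries and 13.3, 10.6 and 12.4 FPKM in control libraries. The groups did not overlap, and the difference of 0.35 ± 0.13 on the log2 scale (SE, 95% interval 0.05 to 0.65) missed the threshold (limma adjusted p = 0.145).

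The TOB proteins link CCR4-NOT to messages and restrain proliferation. Tob1 was the least abundant of the 33, at 4.36, 3.79 and 5.85 FPKM in Skiv2l-deleted libraries and 6.21, 6.06 and 3.74 FPKM in control libraries. Tob2 stood at 19.1, 17.96 and 20.1 FPKM in Skiv2l-deleted libraries and at 23.99, 19.4 and 18.6 FPKM in control libraries. The groups overlapped for both, with log2 fold changes of -0.15 ± 0.22 and -0.10 ± 0.13 (SE).

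In decapping, no gene was called. Dcp2, the enzyme that cuts the cap, had the lowest log2 fold change of this group, at 15.2, 11.99 and 13.6 FPKM in Skiv2l-deleted libraries and 13.8, 16.8 and 17.6 FPKM in control libraries (-0.23 ± 0.14 SE). Dcp1a, its activator, stood at 18.8, 16.7 and 18.3 FPKM in Skiv2l-deleted libraries and at 19.1, 20.4 and 11.5 FPKM in control libraries. The other activator form, Dcp1b, stood at 6.22, 8.57 and 7.60 FPKM in Skiv2l-deleted libraries and at 8.36, 6.51 and 6.66 FPKM in control libraries. For Dcp2, Dcp1a and Dcp1b alike the groups overlapped. Ddx6, an RNA helicase that represses translation and activates decapping, was the most abundant of the group, at 83.7, 58.6 and 79.6 FPKM in Skiv2l-deleted libraries and 71.5, 81.1 and 45.4 FPKM in control libraries. Edc4, the scaffold of the decapping complex, stood at 25.9, 26.2 and 28.2 FPKM in Skiv2l-deleted libraries and at 34.0, 28.6 and 31.6 FPKM in control libraries. The groups did not overlap, at a log2 fold change of -0.22 ± 0.11 (SE, limma adjusted p = 0.264). Edc4 shares 458 exon bases with Nrn1l on the same strand, so reads there could belong to either. The enhancer Edc3 (-0.20) and Patl1 (-0.04), which bridges the ring and the decapping enzyme, had overlapping groups. The 7 genes summed to 178 ± 16.8 FPKM in Skiv2l-deleted and 179 ± 20.7 FPKM in control libraries (SD, n = 3 each, exact permutation p = 0.8). The log2 ratio of the means was -0.01, and ran from -0.11 without control 3 to 0.06 without Skiv2l-deleted 2.

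**Figure D4:**
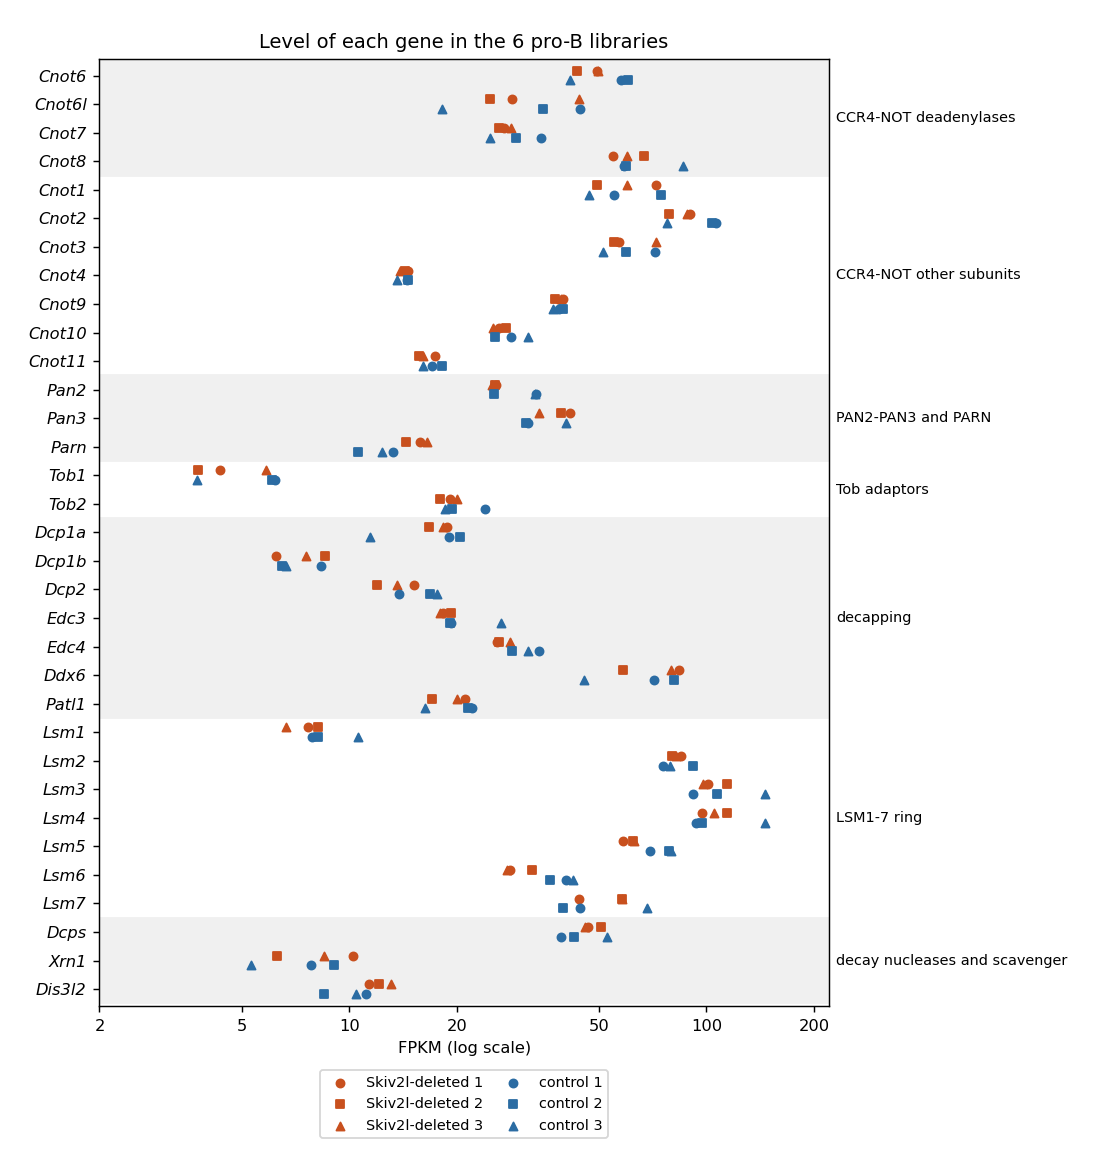
FPKM of each of the 33 genes on a log axis, with 3 Skiv2l-deleted libraries drawn above 3 control libraries in each row and genes grouped by role. Levels run from 3.74 FPKM (Tob1) to 146 FPKM (Lsm3), and the groups are separate for Lsm5, Lsm6, Edc4, Parn and Dis3l2.

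The LSM1-7 ring held the largest difference of the set. Lsm6, on chromosome 8 (78804865 to 78821140 in GRCm38), had values of 28.1, 32.6 and 27.7 FPKM in Skiv2l-deleted libraries and of 40.4, 36.5 and 42.2 FPKM in control libraries. The groups were separate, and the means were 29.5 ± 2.70 FPKM in Skiv2l-deleted and 39.7 ± 2.92 FPKM in control libraries (SD, n = 3 each). The log2 fold change of -0.42 ± 0.11 (SE, 95% interval -0.69 to -0.15) narrowly missed the threshold (limma adjusted p = 0.0684). It passed in 3 of 17 alternatives: with median-of-ratios scaling (0.0399), with scaling that left out immunoglobulin segments (0.0496) and without Skiv2l-deleted 2 and control 3 (limma adjusted p = 0.045). Over all 17 the limma adjusted p ran from 0.0399 to 0.263 and the log2 fold change from -0.49 to -0.37. Lsm5 (chromosome 6, 56701063 to 56704710) stood at 58.4, 62.3 and 62.8 FPKM in Skiv2l-deleted libraries and at 69.6, 78.6 and 79.4 FPKM in control libraries, again with no overlap (log2 fold change -0.30 ± 0.10 SE, limma adjusted p = 0.112). Neither gene shares exon bases with another annotated gene. Because LSM2 to LSM7 also form the nuclear ring with LSM8, which binds the U6 spliceosomal RNA, Lsm8 is given beside them. It was added after its values were seen. Lsm8 stood at 53.4, 60.4 and 57.4 FPKM in Skiv2l-deleted libraries and at 71.0, 71.2 and 74.3 FPKM in control libraries (log2 fold change -0.34 ± 0.10 SE, limma adjusted p = 0.0762). The other subunits common to both rings, Lsm2, Lsm3, Lsm4 and Lsm7, had log2 fold changes of 0.01, -0.12, -0.06 and 0.10.

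The rest of the ring overlapped between the groups. Lsm1, the subunit that sets the cytosolic ring apart from the nuclear one, was the least abundant subunit, at 7.66, 8.20 and 6.66 FPKM in Skiv2l-deleted libraries and 7.89, 8.17 and 10.6 FPKM in control libraries. Lsm3 had the highest mean level of the 33, with 101, 114 and 97.8 FPKM in Skiv2l-deleted libraries and 92.0, 107 and 146 FPKM in control libraries. The gene shares 174 exon bases with AC161456.1 on the same strand. Control 3 held its highest value, as it did for Lsm4 (146 FPKM) and Lsm7 (68.1 FPKM). Lsm2 lies on chromosome 17 (34981862 to 34985891, GRCm38), 131652 bases from the end of Skiv2l on the same chromosome. It stood at 85.0, 80.2 and 82.2 FPKM in Skiv2l-deleted libraries and at 75.4, 91.8 and 79.2 FPKM in control libraries, a log2 fold change of 0.01 ± 0.11 (SE, 95% interval -0.25 to 0.27). The ring summed to 444 ± 24.3 FPKM in Skiv2l-deleted and 484 ± 77.3 FPKM in control libraries (SD, n = 3 each, exact permutation p = 0.6). The log2 ratio of the means was -0.13, and 0.01 without control 3. The difference was larger without control 1, the lowest control, or without Skiv2l-deleted 2, the highest of its group.

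The windows before the start sites of Lsm6 and Lsm5, the lowest by fold change, and of Parn, the highest, are shown to allow comparison of their promoters. They are the 250 bases upstream of the RefSeq start (GRCm38.p6), 5′ to 3′ on the gene's strand. Lsm6 is chr8:78821153-78821402, Lsm5 is chr6:56704700-56704949 and Parn is chr16:13668171-13668420, all on the minus strand. Capitals mark matches on either strand to any of 5 motifs: the CCAAT box (CCAAT), the core bound by ETS factors (CCGGAAG), the NRF1 palindrome, the TATA box (TATAAA) and the amino acid response core bound by ATF4 (TGATGCAA).
Lsm6: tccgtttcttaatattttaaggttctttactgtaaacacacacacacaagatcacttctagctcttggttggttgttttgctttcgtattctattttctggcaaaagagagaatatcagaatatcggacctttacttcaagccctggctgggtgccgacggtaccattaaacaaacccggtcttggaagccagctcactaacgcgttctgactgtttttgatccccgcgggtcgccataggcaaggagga
Lsm5: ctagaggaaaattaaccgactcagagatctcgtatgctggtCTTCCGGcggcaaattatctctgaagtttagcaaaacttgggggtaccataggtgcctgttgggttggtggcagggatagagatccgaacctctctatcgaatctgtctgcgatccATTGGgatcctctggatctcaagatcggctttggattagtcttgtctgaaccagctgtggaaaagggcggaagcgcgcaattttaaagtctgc
Parn: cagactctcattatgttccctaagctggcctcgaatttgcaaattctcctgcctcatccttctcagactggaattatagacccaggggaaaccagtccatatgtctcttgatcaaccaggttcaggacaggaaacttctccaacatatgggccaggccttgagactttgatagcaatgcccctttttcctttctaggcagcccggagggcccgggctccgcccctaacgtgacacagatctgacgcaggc
Lsm5 held 1 ETS core and 1 CCAAT box, on the reverse strand in both cases, and the windows of Lsm6 and Parn held none of the 5. These 3 windows had 44.8%, 48.8% and 52.0% G plus C for Lsm6, Lsm5 and Parn, with 11, 11 and 6 CpG dinucleotides. Windows were found for 27 of the 33 genes, all but Cnot1, Cnot7, Dcp2, Ddx6, Lsm1 and Lsm4. Over the 27 the median was 62.4% G plus C and 22 CpG, against 59.6% and 16 over 8719 tested genes with a window. A CCAAT box was in 9 of the 27 (33.3%, against 37.8% of the 8719 windows), an ETS core in 5 (18.5% against 15.8%), a TATA box in 1, Tob1 (3.70% against 5.85%). The NRF1 site and the ATF4 core were in 0 of 27 (1.81% and 0.516% of the 8719).

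Of the nucleases at the end of the pathway, Xrn1, which degrades decapped messages from the 5′ end, stood at 10.2, 6.27 and 8.48 FPKM in Skiv2l-deleted libraries and at 7.80, 9.08 and 5.32 FPKM in control libraries. The lowest value of each group was again in the pair of libraries that stood apart, and the log2 fold change was 0.16 ± 0.23 (SE, 95% interval -0.39 to 0.70). Dis3l2, which degrades uridylated RNA from the 3′ end without the exosome, stood at 11.4, 12.1 and 13.1 FPKM in Skiv2l-deleted libraries and at 11.1, 8.49 and 10.5 FPKM in control libraries. The groups were separate by a narrow gap, at a log2 fold change of 0.26 ± 0.14 (SE, limma adjusted p = 0.288). Dcps, which breaks down the cap fragment left by 3′ decay, stood at 46.5, 50.7 and 45.8 FPKM in Skiv2l-deleted libraries and at 39.1, 42.6 and 52.9 FPKM in control libraries (log2 fold change 0.09 ± 0.13 SE). All 33 genes together summed to 1262, 1237 and 1291 FPKM in Skiv2l-deleted libraries and to 1305, 1326 and 1348 FPKM in control libraries. The sums did not overlap, and the ratio of the means was 0.953 (exact permutation p = 0.1, the smallest possible). That separation depended on the scaling between libraries. With scaling that left out immunoglobulin segments, the sum of control 3 fell below those of Skiv2l-deleted 1 and Skiv2l-deleted 3, and the groups overlapped.

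A departure shared by 2 libraries ran through these genes as it did through the whole data set. Relative to the other libraries of its group, Skiv2l-deleted 2 departed in the same direction as control 3 for 27 of the 33 genes (81.8%, against 69.8% of all tested genes). Pearson's r of the departures was 0.83 over the 33 (Spearman's rho 0.82) and 0.56 over all tested genes (Spearman's rho 0.53), a description over genes that share the same libraries. The 14 genes lowest in both libraries within their groups were Cnot1, Cnot2, Cnot3, Cnot6, Cnot6l, Cnot7, Cnot9, Cnot11, Tob1, Tob2, Dcp1a, Xrn1, Ddx6 and Patl1. The 9 highest in both were Cnot8, Cnot10, Dcps, Edc3, Lsm1, Lsm3, Lsm4, Lsm6 and Lsm7. These sets are 42.4% and 27.3% of the 33, where 22.8% and 27.9% of all tested genes were lowest and highest in both. The summed exon length had a median of 6637 bases in the first set and 2753 bases in the second, both picked by the departures themselves. Spearman's rho of exon length with the departure over the 33 genes was -0.49 for Skiv2l-deleted 2 and -0.47 for control 3. Exon length was not set against the departures over all tested genes, so whether the relation is particular to the 33 was not tested. Of the 7 myeloid markers, Mpo, Elane, Lyz2, Csf1r, Itgam and S100a8 had their highest value of each group in the same 2 libraries, and S100a9 did so only in the Skiv2l-deleted group. S100a8 and S100a9 were also high in Skiv2l-deleted 1 (100 and 165 FPKM) and control 2 (129 and 217 FPKM), where Mpo and Elane were low. The part of these markers in the departures was not tested. Without both libraries, 1 of the 33 genes was called, Lsm6 at lower level, where 1683 of 12909 tested genes were.

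**Figure D5:**
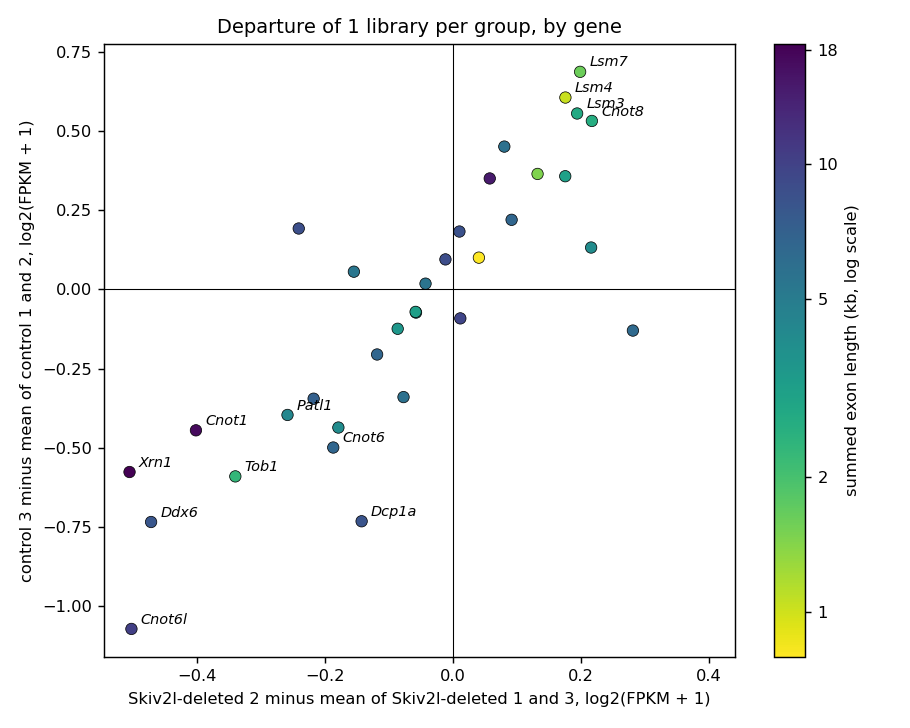
Difference of Skiv2l-deleted 2 from the mean of the other Skiv2l-deleted libraries (horizontal axis) and of control 3 from the mean of the other control libraries (vertical axis), both on log2(FPKM + 1), for the 33 genes coloured by summed exon length. Points run along the diagonal (Pearson's r 0.83), with Cnot6l, Ddx6, Xrn1 and Tob1 at the low end and Lsm7, Lsm4, Lsm3 and Cnot8 at the high end.

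A second list held 46 other genes of the pathway: proteins that recruit deadenylases, further nucleases and decapping cofactors, cap enzymes, and proteins that bind or extend tails. Of the 43 that were tested, 0 were called in either direction, against 8.84% of all tested genes. An unadjusted limma p under 0.05 was reached by 7 (16.3%, against 25.6% of all tested genes), and the median log2 fold change was 0.00. The groups did not overlap for 12 of the 43 (27.9%, against 32.2% of all tested genes). Of these, 5 were higher (11.6% of the 43, against 19.9%) and 7 lower (16.3%, against 12.3%) in Skiv2l-deleted cells. Angel1, Nudt12 and Patl2 did not pass the filter. The 7 with an unadjusted limma p under 0.05 were Lsm8, Btg2, Zfp36, Larp4b and Tut7 at lower and Larp1 and Pabpc4 at higher level. Btg2, an antiproliferative adaptor of CCR4-NOT, stood at 70.5, 84.0 and 83.1 FPKM in Skiv2l-deleted libraries and at 104, 95.6 and 110 FPKM in control libraries (log2 fold change -0.38 ± 0.11 SE, limma adjusted p = 0.0887). Larp1, which binds messages of the translation machinery, stood at 50.3, 31.9 and 38.5 FPKM in Skiv2l-deleted libraries and at 26.2, 30.5 and 26.1 FPKM in control libraries (log2 fold change 0.51 ± 0.17 SE, limma adjusted p = 0.125). Zfp36, which brings CCR4-NOT to AU-rich messages, had the lowest log2 fold change of the list (-0.55 ± 0.23 SE, limma adjusted p = 0.183), with overlapping groups. Among the 7 with an unadjusted limma p under 0.05, the groups did not overlap for Btg2, Larp1, Lsm8, Larp4b, Pabpc4 and Tut7.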

How the data were processed

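The deposited data are 1 table per mouse with FPKM, TPM and coverage for each gene, made by the authors against GRCm38, per the file headers and the submitters' processing notes. No source used here names the aligner, the quantification tool or its strand setting. Of the 33 genes, 9 share exon bases with a gene on the opposite strand, among them Edc3 (1284 bases, Clk3) and Xrn1 (604 bases, C78334), and 3 share them with a gene on the same strand: Edc4, Lsm3 (174 bases, AC161456.1) and Cnot3 (86 bases, Mir3572). Their values are less certain. FPKM was summed per gene identifier. The coverage signal deposited by the authors served only to estimate aligned bases. Low values were whole multiples of the most frequent step, 78 bases, within 0.1 in only 45.4% to 48.0%, so whole reads were not recovered, depth in reads is unknown and no count model was used.

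The test was limma 3.58.1 in R 4.3.3 (lmFit, eBayes with a mean-variance trend, two-sided) on log2(FPKM + 1) with genotype as the only term, adjusted by the Benjamini-Hochberg method over all 13539 genes. Fold changes on this scale understate the change of low genes. Intervals at 95% are not adjusted for the number of genes. For sums and shares the test was an exact permutation test, two-sided. The TPM deposited by the authors was an alternative, beside another pseudocount, filters, scalings, variance models, a replicate block and omission of libraries. Exon lengths and overlaps came from GENCODE M21 (GRCm38, coordinates identical for the 53861 identifiers of the same version), and start-site windows from RefSeq (GRCm38.p6), the window nearest the deposited 5′ end of each gene. The genes, the lists and the alternatives were chosen with earlier results of these data known. Values per library were given, by rule, for the gene of largest change and of highest level in each role group and for the pairs Cnot7 and Cnot8, Cnot6 and Cnot6l, Dcp1a and Dcp1b, Tob1 and Tob2, and Pan2 and Pan3; Lsm5, Edc4, Xrn1, Cnot1, Lsm1, Lsm2, Lsm8, Btg2 and Larp1, and the names of Zfp36, Larp4b, Pabpc4 and Tut7, were added after their values were seen. Each library came from 1 mouse, per the labels.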

Additional observations from a re-analysis of the deposited data

How the results depend on the processing

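Of the 33 genes, 32 were not called in any of the 17 alternatives. Lsm6 was called lower in 3 (1 gene with median-of-ratios scaling, 1 with scaling that left out immunoglobulin segments, and 1 without Skiv2l-deleted 2 and control 3). No gene of the 33 was called higher in any of the 17. For 16 genes the sign of the log2 fold change was the same in all 17, and for the other 17 genes, none of them called and none above 0.19 in absolute log2 fold change, it differed in at least 1. The number of all tested genes called, 1197, was 512 with no filter on low values and 365 with the replicate block, and 179 to 1749 when 1 library was left out (184, 663 and 179 without Skiv2l-deleted 1, 2 and 3, and 381, 475 and 1749 without control 1, 2 and 3). The labels' replicate numbers were not taken as pairs. Over all tested genes the departures of same-numbered libraries correlated at 0.09, -0.43 and -0.35, and no library correlated best with its own number. The highest correlations were 0.49 for Skiv2l-deleted 1 with control 2, 0.56 for Skiv2l-deleted 2 with control 3 and 0.41 for Skiv2l-deleted 3 with control 1. With the replicate block 0 of the 33 genes were called. The summed level of all 33 genes, at a log2 ratio of -0.07, was at -0.13 with median-of-ratios scaling. The groups overlapped in this sum with scaling that left out immunoglobulin segments. The sums of the role groups and the paralog shares moved by less than 1 SD in each alternative run for them, but the spread is wide against these small differences. The log2 ratios of the sums of the other CCR4-NOT subunits, of PAN2-PAN3 with PARN, of the decapping genes and of the LSM1-7 ring changed sign in at least 1 alternative, as did the differences in all 4 paralog shares. Depth in reads is unknown, so the precision of the low genes Tob1, Dcp1b, Lsm1 and Xrn1 rests on the spread of 3 libraries per group.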
